A study of Mus musculus with 38 samples.

Results

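The genes that build cholesterol and fatty acids were followed in MMTV-PyMT mammary tumor cells as the tumors progressed and as they were treated with chemotherapy. The set was chosen by name and held 30 genes, and a gene was measured where a probe of the array that is not a control carried its name. In all, 29 of the 30 genes had such a probe, with 60 probes between them, out of 27962 gene names on the array. They comprised 16 genes of sterol synthesis, 9 of fatty acid synthesis, and 4 regulators and transporters. No probe carried the name of Me1, the malic enzyme that supplies NADPH for fatty acid synthesis, but its older name Mod1 was on the array. Mod1 did not pass the test in any comparison.

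Cholesterol and fatty acids are both made from acetyl-CoA in the cytosol, which Acly forms from citrate and Acss2 forms from acetate. In the sterol branch, acetyl-CoA is built into mevalonate, then into isoprenoid units, squalene, lanosterol and finally cholesterol. In the fatty acid branch, Acaca makes malonyl-CoA, Fasn makes palmitate, and elongases and desaturases such as Elovl6, Scd1 and Fads2 lengthen the chains and place bonds in them. The transcription factors SREBP-1 and SREBP-2, encoded by Srebf1 and Srebf2, bind sterol response elements in the promoters of many of these genes. SREBP-1 is best known for the fatty acid genes and SREBP-2 for the sterol genes, and Insig1 holds both factors in the endoplasmic reticulum when sterols are plentiful. Mammary epithelium raises this program when it makes milk fat.

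All tumors descended from focal hyperplasias of MMTV-PyMT;actin-GFP mice, in which the mouse mammary tumor virus promoter drives the polyoma middle T oncogene and an actin promoter drives GFP in all tissues. FVB/n females, whose mammary fat pads had been cleared of epithelium, received the hyperplasias as transplants, so that GFP marked donor cells, and GFP-positive cells were sorted. The hosts lacked the transgenes and kept their own stroma and immune cells. In the progression experiment, 5 arrays held adenoma (outgrowths of 5 weeks) and 6 held carcinoma (outgrowths of 18 weeks). A further 6 held disseminated tumor cells, sorted from pooled lungs of 3 to 6 mice with outgrowths of 18 weeks, and 5 held metastases, sorted from lungs 8 to 10 weeks after the tumor had been removed. In the chemotherapy experiment, 6 arrays held untreated tumors, 6 held residual tumors taken 10 days after 1 dose of TAC (docetaxel, doxorubicin and cyclophosphamide), and 4 held relapsed tumors taken 10 days after 4 doses. Dosing began 8 weeks after transplantation, and relapsed tumors, with more doses, were collected later than residual ones. Number of doses and age of the outgrowth cannot be told apart between them. The labels and the study's methods give no age for the untreated tumors. In the labels, residual tumors carry the name regressed tumor and relapsed tumors the name resistant tumor. Each sample was labeled with Cy5 and hybridized with a Cy3-labeled Universal mouse reference, so every level below is a log2 ratio of sample to that reference, and every change is a difference of such ratios. The labels do not say that replicates came from separate animals, so p-values measure the spread between the deposited samples.

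The promoters of the set were compared by letters, because members of both branches are known targets of the same factors. The RefSeq table for build GRCm38.p6, which gives 250 bases before to 50 bases after each start, held 27 promoters for 22 of the 29 measured members. The letters CCAAT, the box bound by the factor NF-Y, occurred on either strand in 20 of the 27 (74.1%), against 37.4% of all 32851 promoters of the table. By gene, 13 of 13 sterol members held a CCAAT box, as did 3 of 6 fatty acid members and 3 of 3 regulators. The core of the sterol response element, searched on both strands as TCACNCCAC, occurred in 1 of the 27, that of Hmgcs1, against 1.24% of all promoters. The E-box CACGTG occurred in 4 of the 27 (14.8%), against 7.15% of all promoters. No matches overlap in the stretches that follow, and a match describes the letters and not a bound site. The last 150 bases before the start are shown for 5 members, read 5′ to 3′ on the strand of the gene, with CCAAT boxes (ATTGG where the box lies on the other strand) and the sterol response element in capitals. Hmgcs1 is shown because it held the sterol response element, and lies at chr13:119690201-119690350 on the plus strand. Ebp (chrX:8193513-8193662, minus strand) and Sc4mol (chr8:64733579-64733728, minus strand, RefSeq name Msmo1) are shown as sterol genes that changed between progression groups. Elovl6 (chr3:129532236-129532385, plus strand) and Fads2 (chr19:10101504-10101653, minus strand) are shown as the fatty acid genes that fell in most comparisons, and neither had a motif in the stretch shown.
Hmgcs1: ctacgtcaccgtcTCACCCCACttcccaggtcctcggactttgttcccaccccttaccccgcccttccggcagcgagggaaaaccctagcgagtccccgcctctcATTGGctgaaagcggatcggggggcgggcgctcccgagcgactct
Ebp: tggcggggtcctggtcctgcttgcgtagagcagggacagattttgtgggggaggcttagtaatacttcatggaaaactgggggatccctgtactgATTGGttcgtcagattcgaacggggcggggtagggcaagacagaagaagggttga
Sc4mol: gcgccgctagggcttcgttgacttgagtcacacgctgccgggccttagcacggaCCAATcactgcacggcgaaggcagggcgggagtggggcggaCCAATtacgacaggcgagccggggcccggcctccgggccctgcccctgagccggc
Elovl6: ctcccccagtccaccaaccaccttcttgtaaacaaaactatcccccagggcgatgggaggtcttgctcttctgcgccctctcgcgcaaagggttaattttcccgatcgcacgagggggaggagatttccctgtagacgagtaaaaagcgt
Fads2: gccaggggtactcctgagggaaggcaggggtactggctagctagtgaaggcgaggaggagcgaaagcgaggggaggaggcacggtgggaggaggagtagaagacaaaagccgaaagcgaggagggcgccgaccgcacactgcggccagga

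Some arrays carried signal of other cell types that moved with the groups. The mean log2 ratio of 8 macrophage markers, among them Cd68 and Csf1r, ran from -1.07 to -0.71 in adenoma and from 2.79 to 4.39 in disseminated cells. It ran from -1.52 to -0.47 in 5 carcinomas but was 4.05 in carcinoma replicate 6, and it ran from -0.43 to 4.42 in metastases, with the highest value in replicate 4. All 8 macrophage markers passed the test as higher in disseminated cells than in adenoma and in carcinoma, 6 of 8 in metastases against adenoma and 2 of 8 in metastases against carcinoma. The mean of 5 alveolar macrophage markers was 0.68 or less in every adenoma and ran from 0.04 to 2.18 in carcinoma, from 4.33 to 5.89 in disseminated cells and from 2.06 to 4.92 in metastases. All 5 passed as higher in disseminated cells than in adenoma and in carcinoma, and 3 of 5 in metastases against each of these groups. Of the 8 lung epithelium markers, 4 passed as higher in disseminated cells than in adenoma and 3 in metastases. Of the 5 endothelium markers, 3 and 2 did so, and of the 7 adipocyte markers 2 and 1. Another adipocyte marker, 1 of the 7, passed as lower in metastases than in adenoma. The adipocyte list mean ran from 0.16 to 0.80 in adenoma and from 0.46 to 0.77 in carcinoma. It ran from 0.41 to 1.05 in disseminated cells and from 0.47 to 0.85 in metastases. The mean of 8 mammary epithelium markers ran from 2.76 to 3.51 in adenoma, from 2.24 to 3.74 in carcinoma, from -0.19 to 3.36 in disseminated cells and from 0.14 to 4.28 in metastases, with the lowest values of carcinoma and metastases on the same 2 arrays. In the chemotherapy experiment it was between 3.81 and 4.50 on every array. Fewer cells of a type and less RNA per cell cannot be told apart in such sorted samples. Carcinoma and metastases shared slides and a scan day, and adenoma and disseminated cells shared others. Within slides, a comparison could therefore be made only of metastases with carcinoma and of disseminated cells with adenoma, and in the other 4 progression comparisons group and slide cannot be told apart. The 6 comparisons also share samples, so their results are not independent of each other.

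By calls, the lipid synthesis genes did not move as a block across progression. By sign alone most changes were negative in the lung groups. In disseminated cells 23 of 29 members had a negative change against adenoma and 22 against carcinoma. The medians of all genes were -0.01 and -0.07 there. In metastases 19 were negative against adenoma and 18 against carcinoma, and in carcinoma against adenoma 16 were. The share of all genes with a negative change was not computed. A small number of steps stood out in each branch. Ebp was high in carcinoma, Fdft1 and Acly were high in metastases, and Elovl6, Fads2 and Srebf1 were low in both lung groups. A gene passed at a Benjamini-Hochberg adjusted p below 0.05 in limma over all 27962 gene names, with all groups of the experiment in the model. In carcinoma against adenoma, 1 of 29 members rose (3.45%, against 7.03% of all genes) and 0 fell (against 4.82%). In disseminated cells against adenoma, 1 rose (3.45%, against 8.36%) and 4 fell (13.8%, against 12.5%). Against carcinoma, 3 rose in disseminated cells (10.3%, against 9.24%) and 7 fell (24.1%, against 17.5%). These shares lay near those of all genes.

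Metastases against adenoma gave the most calls. There, 2 members rose (6.9%, against 13.1% of all genes) and 9 fell (31%, against 15.8%). Metastases against carcinoma gave 2 that rose (6.9%, against 7.97%) and 7 that fell (24.1%, against 14.2%). Metastases against disseminated cells gave 3 that rose (10.3%, against 6.98%) and 1 that fell (3.45%, against 6.24%). Over the 6 comparisons, 18 members passed in at least 1 and 11 in none. The 11 were Hmgcs1, Idi1, Sqle, Sc5d, Acaca, Fasn, Scd1, Scd2, Fads1, Srebf2 and Stard4. They include the entry to the mevalonate pathway, the epoxidase of squalene and the central enzymes of fatty acid synthesis. The counts moved when single arrays were left out. Carcinoma against adenoma gave 3 without adenoma replicate 4 or without disseminated replicate 5, and 2 without metastases replicate 4. Disseminated cells against adenoma gave 3 without adenoma replicate 3, and disseminated cells against carcinoma gave 6 without disseminated replicate 3. Metastases against disseminated cells gave 2 without disseminated replicate 3 and 9 without disseminated replicate 6. Without carcinoma replicate 6 and metastases replicate 4 together, the arrays with the highest macrophage means of their groups, the 6 counts in the order given were 1, 8, 14, 11, 9 and 6. Neither array is in the comparison of disseminated cells with adenoma, where leaving them out changes the estimate of spread shared by all groups and not the samples compared. The share of all genes that passed was not computed for the fits with arrays left out. Whether these counts moved more than those of all genes was therefore not tested.

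**Figure D1:**
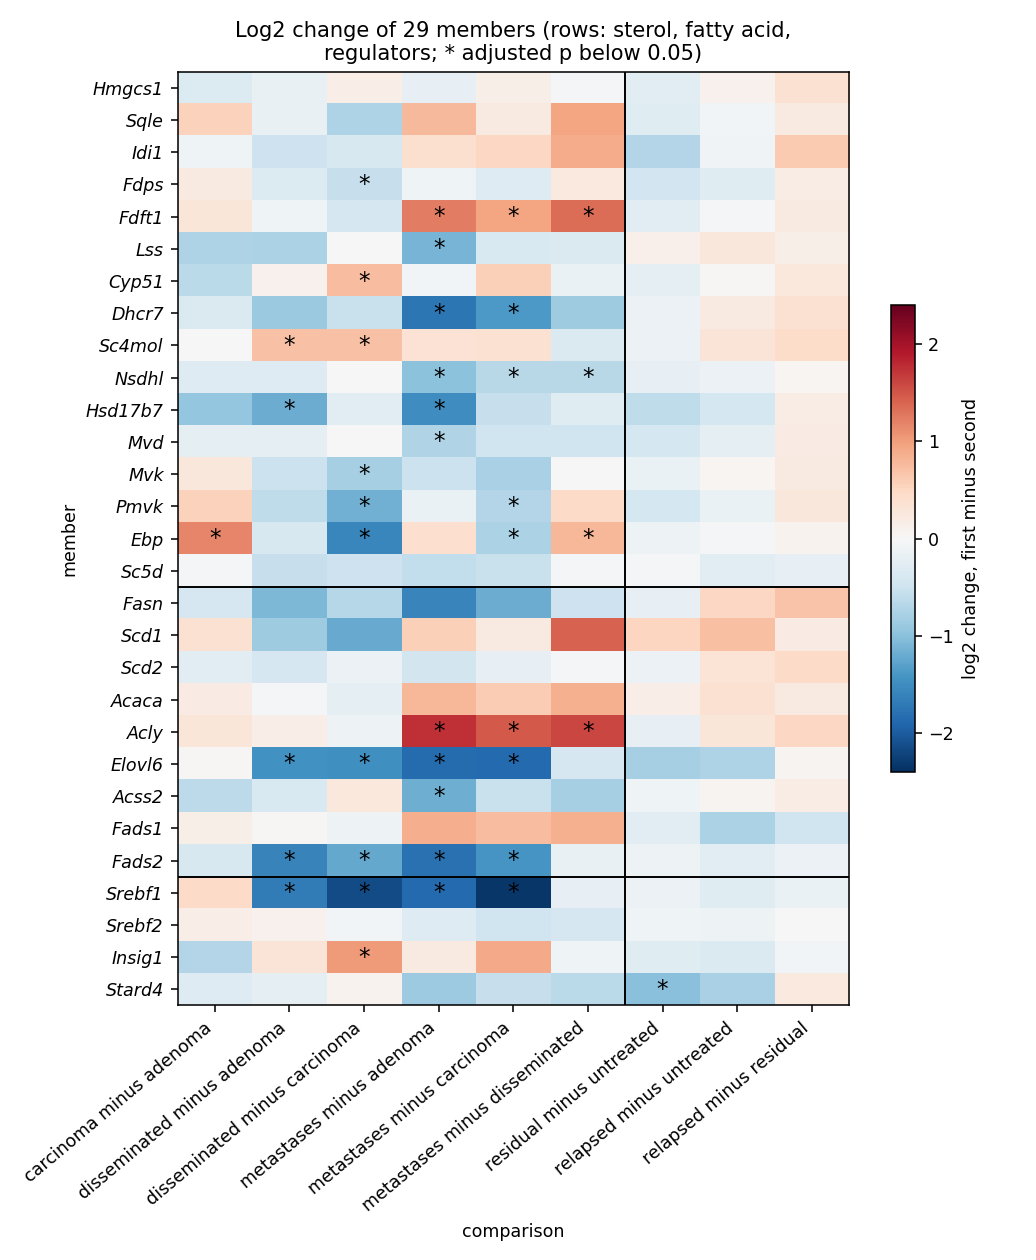
Log2 change of each of the 29 measured members (rows, ordered by branch) in the 9 comparisons (columns), with color for the size and direction of the change and a star for adjusted p below 0.05. Most stars lie in the columns of disseminated cells and metastases, and 1, for Stard4, lies in the chemotherapy columns.

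Within the sterol branch, Ebp, the sterol isomerase that acts late in the pathway, was highest in carcinoma. The Ebp level in adenoma was 0.85, 0.83, 1.33, 1.13 and 0.87. In carcinoma it ran from 1.79 to 2.60 with a median of 2.18, and in disseminated cells from 0.11 to 1.25 with a median of 0.58. The 6 carcinomas lay above every adenoma and every sample of disseminated cells. Metastases had levels of 1.11, 0.61, 1.72, 1.66 and 1.95 and overlapped with carcinoma in 1 sample. Ebp was 2.25-fold higher in carcinoma than in adenoma (log2 change 1.17, SE 0.227, adjusted p = 0.00304 in limma) and 2.95-fold lower in disseminated cells than in carcinoma (log2 change -1.56, SE 0.216, adjusted p = 8.3e-05). It was 1.70-fold lower in metastases than in carcinoma (adjusted p = 0.0207) and 1.74-fold higher in metastases than in disseminated cells (adjusted p = 0.0247). Ebp was the only member that passed in both directions. The fall from carcinoma to metastases was present in each of 3 slides, with log2 changes of -0.42, -0.61 and -1.66. That call was lost without metastases replicate 1 (adjusted p = 0.0585) or replicate 2 (0.0676) and with the deposited ratios (0.0884). The higher level in metastases than in disseminated cells was lost without disseminated replicate 3 (0.0667) or 5 (0.0505) and without metastases replicate 3 (0.0673) or 5 (0.0726). With the mean of the macrophage markers as a covariate, all 4 Ebp calls were kept.

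Fdft1, squalene synthase, which commits farnesyl units to sterols, was highest in metastases. Its level in metastases was -0.13, 0.28, 0.12, -0.14 and 0.15, and in adenoma -1.34, -0.94, -1.13, -1.26 and -1.24. Carcinoma ran from -1.29 to -0.61 around a median of -0.86, and disseminated cells from -1.77 to -0.47 around -1.37. Every metastasis sample lay above every sample of the other 3 groups. The change was 2.36-fold against adenoma (log2 1.24, SE 0.182, adjusted p = 8.4e-05), 1.93-fold against carcinoma (log2 0.95, SE 0.174, adjusted p = 0.00111) and 2.54-fold against disseminated cells (log2 1.35, SE 0.174, adjusted p = 0.000124). Within the 3 slides shared with carcinoma the log2 changes were 0.94, 0.72 and 1.30. A dimmer probe of Fdft1, well above background on 14 of 22 arrays, gave a log2 change of -0.93 (adjusted p = 0.000954 over all probes) in metastases against disseminated cells. The dimmer probe also had the opposite sign in metastases against adenoma and against carcinoma. The direction for Fdft1 in metastases therefore rests on the brighter probe in all 3 comparisons.

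The genes around mevalonate behaved differently from Fdft1. Pmvk, which phosphorylates mevalonate phosphate, had levels in carcinoma from 0.12 to 0.70 with a median of 0.39, and in disseminated cells from -1.56 to 0.16 with a median of -0.76. In adenoma it was -0.38, -0.24, 0.12, -0.08 and -0.30, and in metastases -0.18, -0.39, 0.34, -0.99 and -0.45. Pmvk was thus highest in carcinoma, and 5 of 6 samples of disseminated cells lay below all carcinomas. It fell 2.24-fold from carcinoma to disseminated cells (log2 change -1.16, SE 0.232, adjusted p = 0.00138) and by a log2 change of -0.71 from carcinoma to metastases. The other Pmvk probe gave -1.04 in the former comparison (adjusted p = 0.00385). Mvk, the mevalonate kinase, and Fdps, which makes farnesyl diphosphate, also fell from carcinoma to disseminated cells, with log2 changes of -0.79 and -0.54. Mvd, the decarboxylase of the pathway, fell by 0.71 from adenoma to metastases with no overlap of the groups. Hmgcs1 and Idi1, which act before and after these kinases, passed in no comparison. The position that the array files give for the Idi1 probe lies on chromosome 2, while RefSeq places Idi1 on chromosome 13, so the identity of that probe is uncertain.

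Among the genes that turn lanosterol into cholesterol, Sc4mol was higher in disseminated cells than in adenoma and carcinoma, and Cyp51 was higher than in carcinoma. Sc4mol, the methylsterol monooxygenase, had levels in adenoma of -2.23, -2.02, -1.99, -2.14 and -2.22. Carcinoma ran from -2.66 to -1.65 with a median of -2.12, and disseminated cells from -2.02 to -0.70 with a median of -1.39. In metastases it was -1.57, -1.61, -1.82, -2.37 and -1.48. Of the 6 samples of disseminated cells, 5 lay above every adenoma and 4 above every carcinoma. The rise was 1.62-fold against adenoma (log2 0.70, SE 0.21, adjusted p = 0.0238) and 1.63-fold against carcinoma (log2 0.71, SE 0.2, adjusted p = 0.0134). Within slides the change against adenoma was 1.13, 0.59 and 0.30 on the log2 scale. Cyp51, the lanosterol demethylase, ran from -2.28 to -1.59 in carcinoma with a median of -1.82 and from -2.01 to -0.62 in disseminated cells with a median of -1.03. It was -1.23, -0.95, -0.55, -1.97 and -1.29 in adenoma and -1.15, -1.66, -0.89, -1.19 and -1.46 in metastases. Cyp51 was 1.67-fold higher in disseminated cells than in carcinoma (log2 0.74, SE 0.233, adjusted p = 0.0231) and did not pass against adenoma (log2 0.095, adjusted p = 0.824). The call against carcinoma was lost without carcinoma replicate 1 (adjusted p = 0.059), disseminated replicate 1 (0.0568) or disseminated replicate 3 (0.0591).

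**Figure D2:**
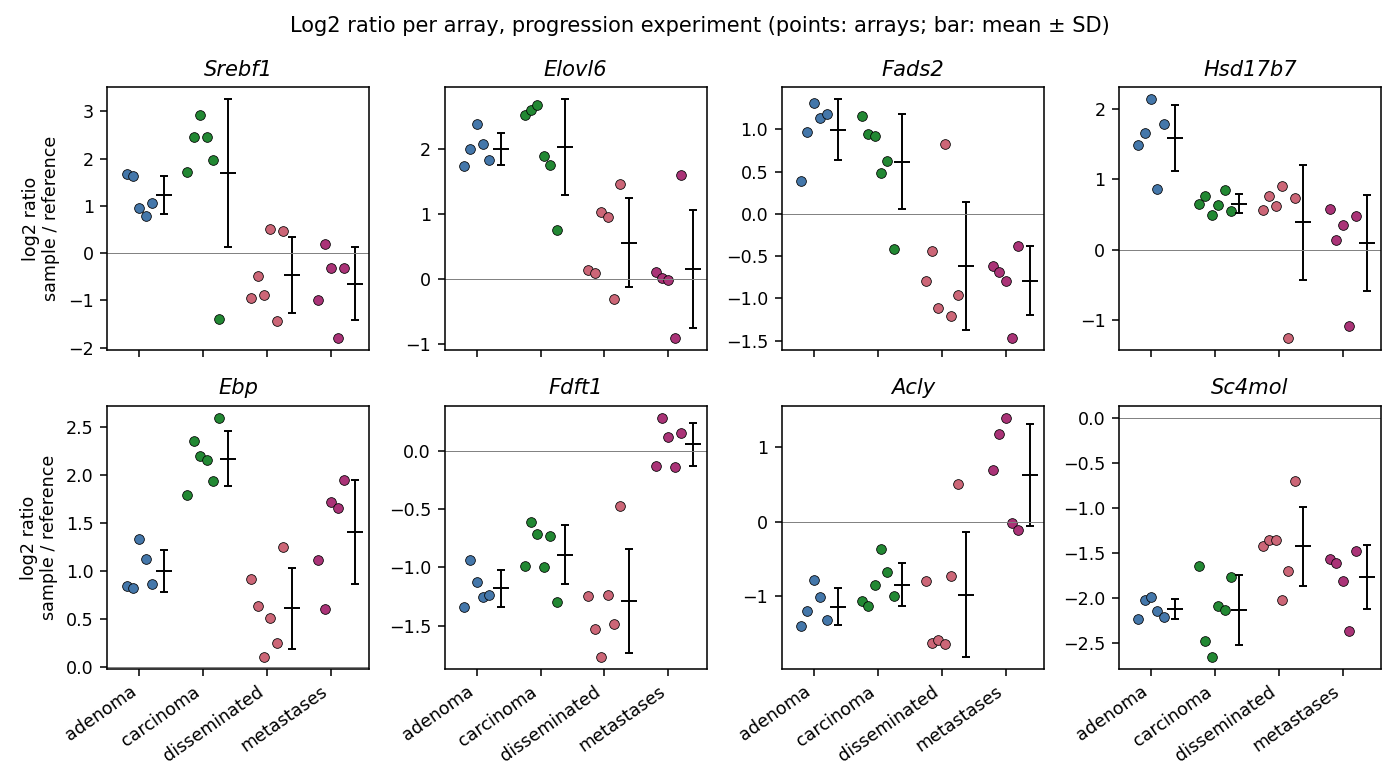
Log2 ratio of sample to reference for 8 members in the 4 progression groups, 1 point per array, with the group mean and its SD beside the points. Carcinoma stands highest for Ebp, metastases for Fdft1 and Acly, and both lung groups lie low for Elovl6, Fads2 and Srebf1 apart from single arrays.

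Lss, which makes lanosterol, and Hsd17b7, Dhcr7 and Nsdhl, which act after it, were lower in metastases than in adenoma by the probe used for each, and other probes of the same genes did not show the fall or showed less of it. Hsd17b7, the reductase that completes removal of the methyl groups from lanosterol, had levels in adenoma of 1.49, 1.65, 2.13, 0.87 and 1.78 and in metastases of 0.58, 0.14, 0.36, -1.08 and 0.49. Carcinoma ran only from 0.50 to 0.85 around 0.64, while disseminated cells ran from -1.25 to 0.91 around 0.68. Adenoma was thus the high group for Hsd17b7. It was 2.81-fold lower in metastases (log2 change -1.49, SE 0.353, adjusted p = 0.0038) and 2.29-fold lower in disseminated cells than in adenoma (log2 change -1.20, SE 0.338, adjusted p = 0.0172). The latter call was lost without adenoma replicate 3 (adjusted p = 0.0519). Within slides it was -0.52, -2.04 and -1.30. A second probe of Hsd17b7 did not fall in metastases against adenoma (log2 change 0.31, adjusted p = 0.456 over all probes), and the mean of both probes did not pass (-0.59, adjusted p = 0.131).

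Dhcr7, the reductase of the last step to cholesterol, had levels in adenoma of 0.03, 0.31, 0.96, 0.77 and 0.18. In metastases it was -1.18, -1.05, -1.13, -2.46 and -0.59. Carcinoma had a median of 0.43 and a range from -1.70 to 0.53, and disseminated cells ran from -1.57 to 0.27 around -0.33. The lowest carcinoma was replicate 6, which had the highest macrophage mean of its group, and the other 5 lay between 0.40 and 0.53. Dhcr7 was 3.32-fold lower in metastases than in adenoma with no overlap (log2 change -1.73, SE 0.429, adjusted p = 0.0051). Against carcinoma it was 2.60-fold lower (log2 change -1.38, SE 0.41, adjusted p = 0.0206), -1.74 without carcinoma replicate 6, and no longer past the threshold without metastases replicate 4 (-1.09, adjusted p = 0.0671). The other Dhcr7 probe gave 0.77 against adenoma (adjusted p = 0.175) and -0.13 against carcinoma, and the mean of both did not pass (-0.48 against adenoma). Nsdhl, the sterol dehydrogenase that acts beside Sc4mol, had levels in adenoma of 1.10, 0.90, 0.63, 0.39 and 1.20 and in metastases of -0.04, -0.15, -0.03, -0.64 and 0.17. Carcinoma ran from 0.14 to 0.82 around 0.64 and disseminated cells from -0.02 to 0.90 around 0.60, so metastases formed the low group. The log2 change of Nsdhl in metastases was -0.98 against adenoma, -0.67 against carcinoma and -0.66 against disseminated cells. The last had an adjusted p of 0.0241, which rose to 0.0627 without disseminated replicate 3 and to 0.0601 without metastases replicate 4. Another Nsdhl probe, well above background on 20 of 22 arrays, passed the test in the opposite direction in metastases against carcinoma (log2 change 1.23, adjusted p = 0.0106 over all probes). Lss, lanosterol synthase, fell by 1.12 from adenoma to metastases, but its 2 other probes, both well above background on all 22 arrays, gave 0.08 and -0.31 and did not pass. Sqle, which makes the epoxide that Lss closes, and Sc5d, a late desaturase, passed in no comparison.

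In the fatty acid branch, Elovl6 and Fads2 accounted for most of the calls. Elovl6, which elongates palmitate to stearate, had levels in adenoma of 1.74, 2.00, 2.38, 2.07 and 1.83. Carcinoma ran from 0.76 to 2.67 with a median of 2.20 and disseminated cells from -0.31 to 1.46 with a median of 0.55. In metastases the levels were 0.11, 0.02, -0.02, -0.91 and 1.59. No sample from the lungs reached the lowest adenoma. Elovl6 was 2.72-fold lower in disseminated cells than in adenoma (log2 change -1.44, SE 0.399, adjusted p = 0.0152) and 2.77-fold lower than in carcinoma (adjusted p = 0.0077). In metastases it was 3.59-fold lower than in adenoma (log2 change -1.85, SE 0.416, adjusted p = 0.00266) and 3.66-fold lower than in carcinoma (log2 change -1.87, SE 0.399, adjusted p = 0.00289). Within slides the log2 change was -1.11, -1.55 and -1.85 for disseminated cells against adenoma and -1.45, -2.99 and -1.24 for metastases against carcinoma. With the macrophage marker mean as a covariate, the change in disseminated cells was -0.10 against adenoma (adjusted p = 0.97) and -0.34 against carcinoma (0.732). In metastases it was -0.96 against adenoma (0.123) and -1.21 against carcinoma, where it kept its call (0.0392). Every adenoma had a lower macrophage mean than any sample from the lungs, so the fit reads changes against adenoma outside that group's range. Among carcinomas only replicate 6 reached the range of disseminated cells.

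Fads2, the desaturase that starts the synthesis of long polyunsaturated fatty acids, followed a like order. Its level in adenoma was 0.39, 0.97, 1.31, 1.14 and 1.18, and in metastases -0.62, -0.69, -0.79, -1.47 and -0.38. Carcinoma ran from -0.42 to 1.16 around 0.77, and disseminated cells from -1.21 to 0.83 around -0.88. Metastases lay below every adenoma, and 5 of 6 samples of disseminated cells did so too. Fads2 was 3.05-fold lower in disseminated cells (log2 change -1.61, SE 0.325, adjusted p = 0.00271) and 3.45-fold lower in metastases (log2 change -1.79, SE 0.339, adjusted p = 0.000707) than in adenoma. Against carcinoma it was 2.35-fold lower in disseminated cells (adjusted p = 0.00643) and 2.66-fold lower in metastases (adjusted p = 0.00475). Within slides the change was -1.64, -2.23 and -1.11 for disseminated cells against adenoma and -1.30, -2.08 and -0.80 for metastases against carcinoma. With the macrophage covariate it was -1.16 in metastases against adenoma (adjusted p = 0.0355) and did not pass in the other 3 comparisons, at -0.65 (0.68), -0.43 (0.607) and -0.93 (0.0672). The limit of that fit given for Elovl6 holds here too. Its neighbor on chromosome 19, Fads1, the next desaturase of the same route, passed in no progression comparison, with levels between -3.61 and -0.88 on all 22 arrays.

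Acly, the citrate lyase that supplies both branches, went the other way. In adenoma its level was -1.40, -1.20, -0.78, -1.0 and -1.31, and in metastases 0.69, 1.17, 1.38, -0.01 and -0.12. Carcinoma ran from -1.13 to -0.36 around -0.92 and disseminated cells from -1.64 to 0.50 around -1.19. Every metastasis sample lay above every adenoma and carcinoma. Acly was 3.39-fold higher in metastases than in adenoma (log2 change 1.76, SE 0.35, adjusted p = 0.00102), 2.77-fold higher than in carcinoma (adjusted p = 0.00448) and 3.03-fold higher than in disseminated cells (adjusted p = 0.00391). Within slides the change against carcinoma was 1.38, 1.30 and 2.00, and with the macrophage covariate it was 1.52 and kept its call (adjusted p = 0.0225). A dim Acly probe, well above background on 13 of 22 arrays, gave 0.31 against adenoma (adjusted p = 0.0141 over all probes) and 0.05 against carcinoma. Acss2, which makes acetyl-CoA from acetate, fell by 1.16 on the log2 scale from adenoma to metastases with no overlap of the groups. Another Acss2 probe, well above background on all 22 arrays, gave 0.22 there (adjusted p = 0.622 over all probes) and one on 13 of 22 gave 0.26 (0.178), so the fall of Acss2 rests on the brightest probe. Acaca, Fasn, Scd1 and Scd2, the carboxylase, the synthase and the desaturases of the main route, passed in no progression comparison. Their spread was wide, with Fasn from -2.80 to 0.06 in disseminated cells and from -4.13 to -0.64 in metastases, and Scd1 from -0.73 to 3.18 and from -0.51 to 4.15 in these groups.

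Of the regulators, Srebf1 changed most. Its level in adenoma was 1.66, 1.64, 0.96, 0.78 and 1.07, and in metastases -1.0, 0.19, -0.32, -1.80 and -0.32. Disseminated cells ran from -1.44 to 0.52 with a median of -0.69. Carcinoma had a median of 2.22 and a highest level of 2.91, and replicate 6 lay apart at -1.40 while the other 5 ran from 1.71 to 2.91. All samples from the lungs lay below all adenomas and below 5 of 6 carcinomas. Srebf1 was 3.21-fold lower in disseminated cells (log2 change -1.68, SE 0.587, adjusted p = 0.0471) and 3.66-fold lower in metastases (log2 change -1.87, SE 0.613, adjusted p = 0.0271) than in adenoma. Against carcinoma it was 4.43-fold lower in disseminated cells (log2 change -2.15, SE 0.56, adjusted p = 0.00799) and 5.05-fold lower in metastases (log2 change -2.34, SE 0.587, adjusted p = 0.00803). Without carcinoma replicate 6 these last changes were -2.77 and -2.95. The call against adenoma was fragile for disseminated cells. It was lost without any of the adenomas, without disseminated replicates 1, 2, 3 or 5, and without any of 7 single arrays of the groups not compared, with an adjusted p of up to 0.109. For metastases it was lost without adenoma replicate 1 (adjusted p = 0.0539) or 2 (0.0566) and without metastases replicate 1 (0.0567) or 4 (0.0784). The deposited ratios gave -1.50 for disseminated cells against adenoma (adjusted p = 0.0561).

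The macrophage marker mean moved with Srebf1 on several arrays. Carcinoma replicate 6, all disseminated cells and metastases replicate 4, with macrophage means of 2.79 or more, had Srebf1 levels below every adenoma. Metastases replicate 2 had the lowest macrophage mean of its group, -0.43, but an alveolar macrophage mean of 2.06, above every adenoma, and a lung epithelium mean of 1.55, above every adenoma and carcinoma. Its levels were 0.19 for Srebf1, 0.02 for Elovl6 and -0.69 for Fads2. These 3 levels also lay below every adenoma and below carcinoma replicates 1 to 5. With the macrophage marker mean as a covariate no Srebf1 call was kept. The change was then 0.78 in disseminated cells against adenoma (adjusted p = 0.699), -0.09 against carcinoma (0.949), -0.25 in metastases against adenoma (0.781) and -1.12 in metastases against carcinoma (0.0853). The macrophage means of adenoma and disseminated cells did not overlap, so that fit reads their difference outside the range of either group. Within slides Srebf1 changed by -1.46, -2.52 and -0.94 in disseminated cells against adenoma, and by -2.78, -3.71 and -0.10 in metastases against carcinoma. The slide with -0.10 held carcinoma replicate 6. The part of macrophage or lung RNA in these differences was not tested.

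Insig1, the retention factor, ran from -2.0 to -1.35 in carcinoma around -1.58 and from -2.17 to 0.41 in disseminated cells around -0.73. It was -0.98, -0.99, -1.26, -0.58 and -0.86 in adenoma and -1.22, -1.48, 0.18, 0.23 and -1.34 in metastases. The rise of 2.02-fold in disseminated cells against carcinoma lay just past the threshold (log2 1.01, SE 0.364, adjusted p = 0.0444). It was lost when any of 13 single arrays was left out, among them disseminated replicate 3 (adjusted p = 0.108) and replicate 6 (0.102), and the other Insig1 probe gave -0.17. Srebf2, the factor tied to sterol genes, and Stard4, which carries cholesterol between membranes, passed in no progression comparison. The Srebf2 level lay between -1.73 and 0.22 on all 22 arrays.

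The branches were then set side by side as the mean log2 ratio over the measured members of each branch in each array. The sterol mean ran from -0.65 to -0.31 in adenoma, from -0.77 to -0.32 in carcinoma, from -1.45 to -0.39 in disseminated cells and from -1.21 to -0.53 in metastases. The fatty acid mean ran from -0.49 to -0.12 in adenoma, from -1.41 to -0.05 in carcinoma, from -1.47 to 0.07 in disseminated cells and from -1.90 to -0.03 in metastases. All 4 groups overlapped in both branches. The sterol mean minus the fatty acid mean lay between -0.31 and -0.07 in every adenoma. It was between -0.47 and -0.12 in 5 carcinomas and between -0.50 and -0.18 in 4 metastases, but 0.64 in carcinoma replicate 6 and 0.68 in metastases replicate 4. These are the arrays with the highest macrophage means of their groups, 4.05 and 4.42. In disseminated cells the difference ran from -0.46 to 0.47. By median log2 change, the sterol members stood at -0.36 and the fatty acid members at -0.40 in disseminated cells against adenoma, beside -0.01 for all genes. Against carcinoma the medians were -0.40 and -0.24, beside -0.07. For metastases they were -0.18 and -0.45 against adenoma, beside 0.01, and -0.42 and -0.20 against carcinoma, beside -0.05. The fatty acid medians moved with single arrays. Against adenoma and carcinoma, that of metastases was -0.74 and -0.49 without metastases replicate 3. Without metastases replicate 4 it was 0.08 against adenoma, 0.32 against carcinoma and 0.47 against disseminated cells, where it was -0.05 with all arrays. In disseminated cells the fatty acid median was lowest when replicate 6 of that group was left out, at -0.75 against adenoma and -0.50 against carcinoma. It was highest at -0.34 against adenoma when replicate 2 was left out and at -0.05 against carcinoma when replicate 3 was. The sterol median of metastases ran from -0.28 to -0.10 against adenoma and from -0.57 to -0.25 against carcinoma. In carcinoma against adenoma the medians were -0.08 and 0.03, beside 0.07 for all genes.

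**Figure D3:**
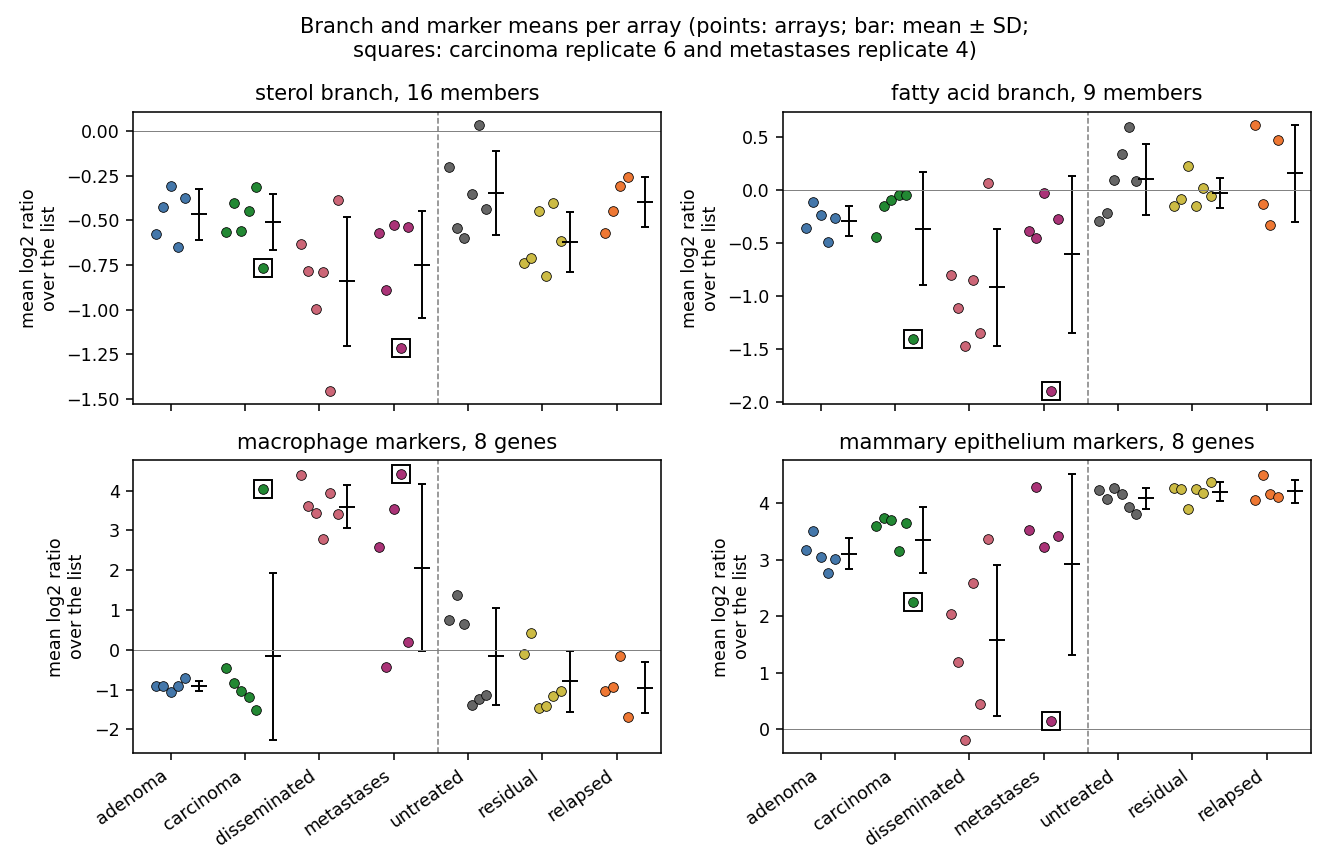
Mean log2 ratio per array over the 16 sterol members, the 9 fatty acid members, 8 macrophage markers and 8 mammary epithelium markers, with squares for carcinoma replicate 6 and metastases replicate 4. A dashed line parts the 4 progression groups from the chemotherapy groups, which were normalized apart, so levels are not compared across it. The squares have the lowest fatty acid means and the highest macrophage means of their groups.

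Within slides the branch medians varied. For disseminated cells against adenoma the sterol median was 0.09, -0.73 and -0.63 on the 3 slides and the fatty acid median 0.49, -1.38 and -0.66. For metastases against carcinoma the sterol median was -0.25, -0.49 and -0.50, and the fatty acid median 0.59, -0.88 and 0.57. The sterol median was thus negative on each slide in metastases against carcinoma, while the fatty acid median changed sign between slides in both comparisons. Metastases replicate 4 lay on the slide with -0.88.

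How far the probes of a gene move together bears on every value above. In all, 10 members had 1 probe, among them Ebp, Elovl6, Fads2, Srebf1 and Sc4mol, 11 had 2, 4 had 3 and 4 had 4. The probe with the highest mean signal was used. Counting other probes that were well above background on 11 or more of 22 arrays, 27 could be compared with the used probe in each progression comparison. In metastases against adenoma, 16 of the 27 had the opposite sign, and so did 7 of the 10 that belonged to members that passed. In disseminated cells against carcinoma 7 of 27 had the opposite sign, and 1 of 6 for members that passed. In metastases against adenoma, Dhcr7, Hsd17b7, Nsdhl, Fdft1, Lss and Acss2 each had such a probe of opposite sign, so the direction of these genes depends on the probe read. No second probe can be read for Ebp, Elovl6, Fads2, Srebf1 and Sc4mol. Probe sequences were not used here, so it was not tested whether probes of a gene read different transcripts.

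**Figure D4:**
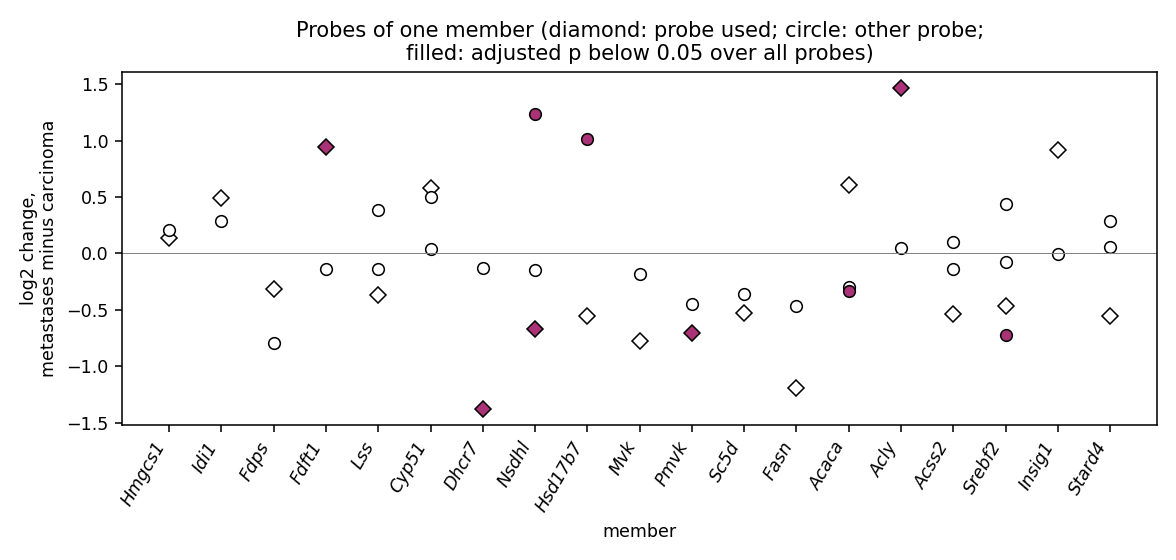
Log2 change in metastases against carcinoma by probe, grouped by member, with a diamond for the probe used and circles for the others. Only probes well above background on 11 or more progression arrays are drawn, and only members with more than 1 such probe. Ebp, Elovl6, Fads2, Srebf1 and Sc4mol, with 1 probe each, are therefore absent. Of the 27 other probes, 11 had the opposite sign to the probe used, among them probes of Nsdhl, Hsd17b7 and Fdft1.

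Other genes of lipid handling had been listed beside the synthesis genes, and several had large changes in the samples from the lungs. Of 7 genes of lipid uptake and storage, 4 rose and 0 fell in disseminated cells against adenoma, where 8.36% of all genes rose and 12.5% fell. Cd36, the fatty acid transporter, rose by 5.18 on the log2 scale (SE 0.699, adjusted p = 0.000152), Fabp4, a fatty acid binding protein, by 4.44, and Lpl, the lipoprotein lipase, by 2.98. Of 7 LXR targets and sterol efflux genes, 4 rose and 0 fell, led by the sterol exporter Abcg1 at 2.78 (SE 0.409, adjusted p = 0.000334), the receptor Nr1h3 at 2.54 and the exporter Abca1 at 2.48. Soat1, which esterifies cholesterol for storage, rose by 2.64. All 8 macrophage and all 5 alveolar macrophage markers rose in the same comparison. So did 4 of 8 lung epithelium, 3 of 5 endothelium and 2 of 7 adipocyte markers, and 0 of these lists fell. The part of any of these cell types in the changes was not tested. Of 18 other genes of fatty acid and lipid assembly, 2 rose and 5 fell. Thrsp, which promotes lipogenesis in mammary and liver cells, fell (log2 change -2.93, SE 0.592, adjusted p = 0.00273), as did Acacb, the mitochondrial acetyl-CoA carboxylase (-2.28). Dgat2, which completes triglyceride synthesis, rose by 3.19. Of 13 genes of fatty acid oxidation 1 rose, Cpt1a, the carnitine transferase of the outer membrane, by 1.18, and 4 fell, led by Acads, a short-chain dehydrogenase (-1.35). Among 10 genes that regulate SREBP or take up sterols, 2 rose and 1 fell, with Npc1, the lysosomal cholesterol exporter, higher by 2.21 and Scap, the escort of SREBP, lower (-0.96). Of 9 other sterol genes 1 rose, Soat1, and 1 fell, the acetyl-CoA thiolase Acat2 (-1.13).

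The same lists shifted in part in metastases. Against adenoma, where 13.1% of all genes rose and 15.8% fell, 5 of the 10 SREBP and uptake genes rose and 2 fell. Mbtps1, the protease that makes the initial cut in SREBP, fell (log2 change -1.36, SE 0.252, adjusted p = 0.000577), and Npc2, the partner of Npc1, rose by 3.14. Mbtps1 was also lower than in carcinoma (-1.13), while Mbtps2, which makes the next cut, was higher by 0.95. Of the 13 oxidation genes 3 rose and 5 fell against adenoma, beside the same shares of all genes, with Cpt1a higher by 1.62, Cpt2, its partner of the inner membrane, at -1.67 and Etfb, an electron carrier, at -1.51. Thrsp and Acacb fell against adenoma, with log2 changes of -2.49 and -2.06. Against disseminated cells, Nr1h3, Soat1 and Abcg1 were lower in metastases, with log2 changes of -2.50, -2.28 and -1.93, and Insig2, the relative of Insig1, was higher by 0.82. In carcinoma against adenoma, Lbr and Tm7sf2, which are both sterol reductases, moved in opposite directions. Lbr fell (log2 change -1.23, SE 0.231, adjusted p = 0.00247) and Tm7sf2 rose by 1.13 (SE 0.321, adjusted p = 0.0281). Acat2 had a log2 change of -1.64 there. No gene of these 6 lists passed in any chemotherapy comparison.

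Chemotherapy was followed by fewer calls, in this set and over all genes. In that experiment 4 of 6 untreated and 3 of 6 residual arrays lay on slides that held no other group. In residual against untreated tumors, 0 of 29 members rose (against 0.179% of all genes) and 1 fell (3.45%, against 0.025%). In relapsed against untreated tumors, also in limma, 0 rose (against 0.0107%) and 0 fell (against 0.00715%). In relapsed against residual tumors 0 rose (against 0.00715%) and 0 fell (against 0.272%). Leaving out relapsed replicate 4 gave 1 call in relapsed against untreated tumors, Fads1, with a log2 change of -1.02 (adjusted p = 0.0485).

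The gene that fell was Stard4, the cholesterol carrier and a known SREBP-2 target. Its level in untreated tumors ran from -1.98 to -1.19 with a median of -1.40 and in residual tumors from -2.70 to -2.15 with a median of -2.49. In relapsed tumors it was -2.73, -2.12, -1.94 and -2.15. The 6 residual tumors lay below all 6 untreated tumors, and the probe was well above background on 4 of the 6 residual arrays and on every untreated and relapsed array. Stard4 was 2.00-fold lower in residual tumors (log2 change -1.0, SE 0.151, adjusted p = 0.0133) and showed a log2 change of -0.77 in relapsed tumors that did not pass (adjusted p = 0.23). Its 2 other probes gave -0.50 and -0.63 in residual tumors without passing, and the mean of the probes did not pass (adjusted p = 0.232). The call was also lost when slide entered as a fixed block (-1.09, adjusted p = 0.487) and with all 38 arrays normalized together (adjusted p = 0.452). On the slide that held both groups the change was -1.18, from 1 untreated and 2 residual tumors.

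Elovl6 and Hsd17b7 had the next smallest p-values in residual tumors. The Elovl6 level ran from 0.19 to 1.13 in untreated tumors around 0.84 and from -0.44 to 0.27 in residual tumors around -0.02, and it was -0.20, -0.66, 0.39 and 0.49 in relapsed tumors. The change was -0.81 in residual (SE 0.198, adjusted p = 0.15) and -0.75 in relapsed tumors (SE 0.222, adjusted p = 0.348), so neither passed, and untreated and residual tumors overlapped in 1 sample of each group. On the shared slides it was -0.34 and -0.46. Hsd17b7 ran from -0.09 to 0.45 in untreated tumors around 0.30 and from -0.66 to 0.10 in residual tumors around -0.35, with 0.38, -0.15, -0.28 and -0.68 in relapsed tumors. Its change of -0.62 in residual tumors did not pass (SE 0.164, adjusted p = 0.196). Fads1 ran from -1.54 to -1.04 in untreated tumors around -1.37 and from -1.90 to -1.38 in residual tumors around -1.57, and was -2.70, -2.28, -2.03 and -1.27 in relapsed tumors. Its change of -0.76 in relapsed against untreated tumors had an adjusted p of 0.293.

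Between relapsed and residual tumors the smallest p-values belonged to Sc4mol, Mvk and Fasn. Sc4mol was -1.85, -2.01, -1.58 and -1.94 in relapsed tumors, from -2.39 to -2.09 around -2.33 in residual tumors and from -2.48 to -1.45 around -2.26 in untreated tumors. Relapsed and residual tumors did not overlap, but the change of 0.45 did not pass (SE 0.159, adjusted p = 0.451). Mvk was -0.85, -1.14, -0.88 and -0.81 in relapsed tumors, from -1.24 to -1.01 around -1.12 in residual and from -1.08 to -0.93 around -0.94 in untreated tumors, a change of 0.21 (adjusted p = 0.455). Fasn, the synthase of palmitate, was 1.11, 0.19, 0.97 and 1.40 in relapsed tumors, from -0.56 to 0.74 around 0.21 in residual and from -0.23 to 0.79 around 0.48 in untreated tumors. Its change was 0.68 (adjusted p = 0.537). On the slide that held both groups the changes were 0.32 for Sc4mol, 0.22 for Mvk and -0.02 for Fasn.

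**Figure D5:**
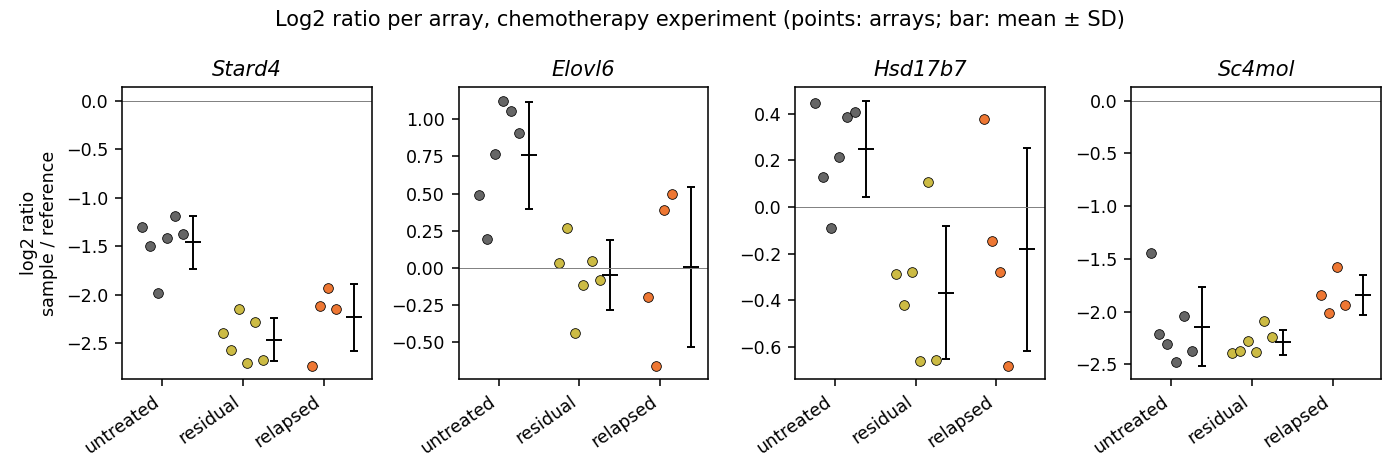
Log2 ratio of sample to reference for Stard4, Elovl6, Hsd17b7 and Sc4mol in untreated, residual and relapsed tumors, 1 point per array, with the group mean and its SD beside the points. Residual tumors lie below all untreated tumors for Stard4 and overlap with them for the other 3 genes.

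By direction alone, 15 of 16 sterol members had a negative change in residual against untreated tumors, with a median of -0.24 beside -0.00 for all genes, and 7 of 9 fatty acid members did so, with a median of -0.13. In relapsed against residual tumors 15 of 16 sterol members had a positive change, with a median of 0.21 beside 0.02, and 7 of 9 fatty acid members, with a median of 0.20. No sterol or fatty acid member passed in either comparison, and the share of all genes with a change of either sign was not computed. These comparisons share the residual tumors, and the relapsed tumors stood at medians of -0.05 and 0.29 against untreated ones. Single arrays moved these medians. The fatty acid median of residual against untreated tumors ran from -0.25 (without residual replicate 3) to -0.04 (without untreated replicate 5), and the one between relapsed and residual tumors was lowest at 0.09 when relapsed replicate 1 was left out and highest at 0.43 when relapsed replicate 3 was. Against untreated tumors the relapsed fatty acid median ran from -0.02 to 0.48 without the same 2 arrays, and the sterol median from -0.12 (without relapsed replicate 3) to 0.04 (without untreated replicate 5). The sterol median of residual against untreated tumors kept its sign, from -0.30 to -0.16, and that of relapsed against residual tumors from 0.16 to 0.31. The sterol mean per array ran from -0.60 to 0.03 in untreated, from -0.81 to -0.40 in residual and from -0.57 to -0.26 in relapsed tumors, so the groups overlapped. The fatty acid mean ran from -0.30 to 0.60, from -0.15 to 0.23 and from -0.33 to 0.61. On the only slide that held both groups, the medians of the sterol and fatty acid members were -0.67 and 0.26 in residual against untreated tumors, 0.16 and -0.09 in relapsed against untreated tumors, and 0.04 and 0.51 in relapsed against residual tumors. The macrophage mean ran from -1.38 to 1.38 in untreated, from -1.46 to 0.41 in residual and from -1.68 to -0.15 in relapsed tumors, and no macrophage marker passed in these comparisons.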

How the data were processed

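The authors deposited unnormalized intensity values for each spot, as Feature Extraction 10.7 gave them, with the mean signal and the local background of either dye. A table of log2 ratios, background-corrected and normalized by the authors, was also deposited. Columns of 38 arrays were used, 16 from the chemotherapy and 22 from the progression experiment. Per the study's methods, RNA of the progression groups was amplified in 2 rounds and that of the chemotherapy groups in 1, so each experiment was normalized and fitted alone and levels were not compared between them. Samples were grouped by the deposited labels. The deposited log2 ratios were used as an alternative. Across 41174 probes they correlated with the ratios computed here at r from 0.966 to 0.998, with column medians from 0.00472 to 0.0526.

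Calculations ran in R 4.3.3, with limma 3.58.1 and statmod 1.5.0. Normexp with offset 50 corrected the background, followed by loess within arrays and quantile normalization between arrays. Controls and outlying spots were left out, spots of a probe were averaged, and each of 27962 gene names was read from its probe with the highest mean signal. Between 48.4 and 78.9% of probes per array were well above background, which, with the number of arrays, limits precision. No member was below background or saturated on all arrays of a group. Of the listed genes, Mcat, Lpcat3, Plin3 and Ear2 were not found by name. The procedure was tested on simulated data. Values per sample are given for up to 2 higher and 2 lower members per branch and comparison with the largest change among those that passed, and for the 3 smallest p-values of each chemotherapy comparison. The members and all lists were chosen with earlier results of these data known. The alternatives concerned offset, background, normalization, source of values, dim probes, probe averaging, slide and replicate blocks, groups in the fit, a 2-fold threshold and each array left out. Leaving out 2 arrays together and the macrophage covariate were added after the data were seen.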

Additional observations from a re-analysis of the deposited data

Results flagged for a closer look

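The following 8 values lay apart from the rest of their group of 5 or 6 arrays by Dixon's gap criterion, out of 94 groups of 4 to 6 arrays tested, of which chance alone flags about 1 in 20. Carcinoma replicate 6 had a Srebf1 level of -1.40 (others 1.71 to 2.91), a Dhcr7 level of -1.70 (others 0.40 to 0.53), a fatty acid mean of -1.41 (others -0.45 to -0.05) and a sterol minus fatty acid difference of 0.64 (others -0.47 to -0.12). Metastases replicate 4 had an Hsd17b7 level of -1.08 (others 0.14 to 0.58), a fatty acid mean of -1.90 (others -0.45 to -0.03) and a sterol minus fatty acid difference of 0.68 (others -0.50 to -0.18). These 2 arrays also had the highest macrophage marker means of their groups, 4.05 and 4.42. Disseminated replicate 5 had an Hsd17b7 level of -1.25 (others 0.57 to 0.91).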

How the results depend on the processing

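Of 41 named changes, 34 to 41 kept their direction and their side of the threshold under each alternative to normalization, background, source, probe choice and model. The named chemotherapy changes other than Stard4 in residual tumors had not passed, so for them keeping the side means staying uncalled. Slide as a fixed block could be fitted for 21, and 20 kept theirs. Without carcinoma replicate 6 and metastases replicate 4, all 32 progression changes did so. With the macrophage covariate 22 kept both, among them all the changes that had not passed. Of those that had passed, 18 lost the call and 1 turned, Srebf1 in disseminated cells against adenoma (0.78). Counts of members past the threshold moved in part, and the shares of all genes were not computed under these alternatives. Carcinoma against adenoma gave 3 with all 38 arrays together and 4 with only the 2 groups in the fit. Disseminated cells against adenoma gave 8 with all arrays together, 8 with the mean of a gene's probes, 8 without carcinoma replicate 6 and metastases replicate 4 (neither of them in this comparison) and 0 with the macrophage covariate. Disseminated cells against carcinoma gave 6 at 2-fold or more and 1 with the covariate, metastases against adenoma 7 with the mean of probes and 4 with the covariate, and metastases against carcinoma 5 at 2-fold or more and 4 with the covariate. Metastases against disseminated cells gave 2 with the mean of probes, 8 with the replicate block, 1 with only the 2 groups and 2 at 2-fold or more. Residual against untreated tumors gave 0 with all arrays together, the mean of probes, slide as a fixed block or the replicate block (Stard4, adjusted p = 0.0642). The labels do not say whether equal replicate numbers mark paired samples. The deviations of same-numbered samples correlated over 0.1 in 0 of 5 to 3 of 4 pairs. So few pairs cannot decide the question, and the main fit used no pairing. Leaving out 1 array gave 1 to 3 members for carcinoma against adenoma, 3 to 7 and 6 to 12 for disseminated cells against adenoma and carcinoma, 9 to 14, 7 to 11 and 2 to 9 for metastases against adenoma, carcinoma and disseminated cells, and 1 to 1, 0 to 1 and 0 to 0 for residual against untreated, relapsed against untreated and relapsed against residual tumors. The fatty acid median became 0.27, 0.43 and 0.46 with the covariate (disseminated cells against adenoma, metastases against adenoma and carcinoma) and 0.16 with the deposited ratios in metastases against adenoma. The sterol median became 0.016 with the covariate in disseminated cells against carcinoma and 0.037 with the mean of probes in metastases against carcinoma. The causes were not tested. Dim probes left out moved the median of all genes to -0.13 in disseminated cells against carcinoma.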
